A study of Mus musculus with 32 samples.

Results

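Perigonadal fat is the large visceral fat pad beside the gonads of the mouse, and the data here describe how its messenger RNA differed when Bcl6 was targeted in adipocytes. The compared mice were male C57BL/6 animals of 2 genotypes with 4 animals each: AKO (adipocyte knockout; Bcl6 fl/fl, Adipoq-Cre) and WT (Bcl6 fl/fl). Both groups therefore carried loxP-flanked Bcl6 alleles, and only AKO mice carried Cre recombinase, driven by the promoter of the adiponectin gene, which is active in fat cells. Mice with Cre but without loxP-flanked alleles were not among the groups, so an effect of Cre or its transgene cannot be told apart from that of the deletion. Ages are not in the labels, and whole fat pads were sequenced, so blood vessels, immune cells, stroma and the mesothelial lining were measured together with adipocytes. The members are the genes of the authors' deposited table for this depot, 1488 of the 13361 genes that the authors tested. Of the 32 samples in the series 8 are from this depot, and the same 8 mice also gave inguinal fat. No values per perigonadal library were used here: each gene has a mean of normalized counts over the 8 samples and a log2 fold of AKO over WT with its standard error (SE) and adjusted p, all the authors'. The direction of the fold is taken from the identically named column for inguinal fat, where it matched the counts in 1074 of 1074 genes. The depth of these libraries is unknown. The adjusted p-values measure spread between animals, since the labels give every sample its own animal number.

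BCL6 is a zinc-finger transcriptional repressor that recruits corepressors to DNA and is best known for its part in germinal centre B cells and in limiting STAT-driven transcription. Its preferred DNA site resembles the site bound by STAT5 and STAT6, the transcription factors that act downstream of growth hormone, prolactin and interleukin-4. White adipocytes take up fatty acids, esterify them on a glycerol backbone partly made by phosphoenolpyruvate carboxykinase, keep the triglyceride in a droplet coated by perilipins and CIDE proteins, and release it again through a chain of lipases.

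The promoter stretches below, of 3 genes that were higher in AKO fat and 3 that were lower, were picked because they hold a match. Having a match is therefore no result about these genes. Each stretch is printed 5′ to 3′ on the strand of the gene, from RefSeq on GRCm38.p6. Capitals mark a match to TTCNNNGAA, the core of the site shared by STAT and BCL6 proteins.
Fam134b, chr15:25942572-25942620, plus strand: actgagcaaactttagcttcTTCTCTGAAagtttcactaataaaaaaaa
Prlr, chr15:10223776-10223824, plus strand: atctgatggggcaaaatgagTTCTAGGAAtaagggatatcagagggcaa
Esr1, chr10:4709950-4709998, plus strand: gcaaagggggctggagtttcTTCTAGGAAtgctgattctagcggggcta
Rprml, chr11:103649259-103649298, plus strand: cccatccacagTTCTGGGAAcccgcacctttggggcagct
Cdsn, chr17:35542921-35542969, plus strand: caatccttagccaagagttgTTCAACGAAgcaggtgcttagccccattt
Pccb, chr9:101034997-101035045, minus strand: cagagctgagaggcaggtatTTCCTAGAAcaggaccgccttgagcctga
The matches begin 87, 110, 188, 239, 160 and 141 bases before the RefSeq start used for the window, in the order printed. For Fam134b that start lies inside the gene's full span given below, so its match is not upstream of the whole gene. Further starts of these genes are not given here. Prlr, Esr1 and Pccb hold the stricter sequence TTCCTAGAA or its reverse complement TTCTAGGAA, and every such match is also a match to TTCNNNGAA.

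Windows of 300 bases, 250 before and 50 after the start, were at hand for 1142 of the listed genes. TTCNNNGAA, which reads the same on both strands, was in 62 of 588 windows of genes higher in AKO (10.5%) and in 52 of 554 windows of genes lower in AKO (9.39%), beside 2582 of all 27025 windows (9.55%). TTCCTAGAA on either strand was in 3 windows of each direction (0.51% and 0.542%), beside 0.474% of all windows. Both shares of listed genes were thus near those of all promoters. In windows of protein-coding genes alone the shares were 8.92% for TTCNNNGAA and 0.44% for TTCCTAGAA. The differences between these shares were not tested. Among the 30 largest rises TTCNNNGAA was in 2 of 24 windows (8.33%), and among the 30 largest falls in 4 of 21 (19%), which are few windows. A match is a description of these letters, not a binding site.

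Bcl6 itself was not among the genes of the authors' deposited table for perigonadal fat, nor was Adipoq, whose promoter drives Cre. The table holds only genes that passed the authors' threshold, so an absent gene is not shown to be unchanged. In female inguinal fat, from other mice, the authors' deposited table lists Bcl6 with a log2 fold of 1.09 ± 0.13 SE, higher in the libraries labelled AKO. That value is for the gene as a whole and does not tell deleted exons apart, so it is no check of genotype. Of 21 genes on a list of BCL6 and its corepressors, the number listed was 0. The adjusted p threshold of 0.05 was passed by 11.1% of the genes tested, 5.68% of them higher and 5.46% lower in AKO fat.

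Genes higher in AKO numbered 759 and genes lower in AKO 729, but the sizes of change differed between the directions at the top end. In the authors' deposited table the median rise was 1.38-fold and the median fall 1.40-fold. At least a 2-fold change was reached by 89 genes that rose and 62 that fell, at least a 4-fold change by 20 that rose and 1 that fell, and at least an 8-fold change by 7 that rose and none that fell. Among the 171 genes with a deposited mean of at least 5000 normalized counts, 51 rose and 120 fell, whereas among the 520 genes with means between 200 and 1000, 311 rose and 209 fell. Deposited means scale with transcript length as well as abundance, so levels of different genes are not compared.

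**Figure D1:**
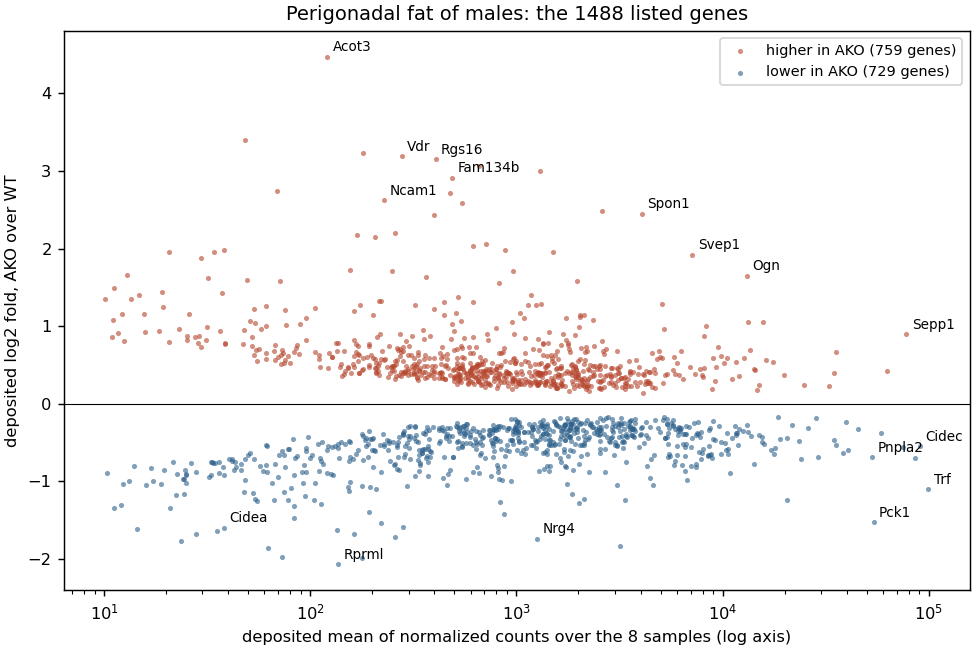
Each point is 1 of the 1488 genes of the deposited perigonadal comparison, placed by its mean of normalized counts over the 8 samples (log axis) and its deposited log2 fold of AKO over WT. The 759 genes higher in AKO reach a log2 fold of 4.47 and the 729 genes lower in AKO reach -2.07, and at means of at least 5000 the points below 0 outnumber those above it.

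The 15 highest means in the authors' deposited table show that pattern by name. Trf, which encodes the iron carrier transferrin, had the highest deposited mean at 99641 normalized counts and fell 2.14-fold (log2 fold -1.10 ± 0.12 SE; chromosome 9, 103204001 to 103230444). Cidec, Plin4, Lipe, Pnpla2, Mgll, Pck1 and Dgat2, all of them genes of fat storage or release, were among the 15 and fell by 0.55, 0.55, 0.37, 0.68, 0.33, 1.53 and 0.63 on the log2 scale. Falls were also listed for Hp, the haemoglobin carrier haptoglobin (-0.69 ± 0.15), for Dbi, an acyl-CoA binding protein (-0.60 ± 0.15), for Ptrf, a coat protein of caveolae (-0.24 ± 0.07), and for the galectin gene Lgals1 (-0.54 ± 0.15). The exceptions were Sepp1, which encodes the selenium carrier selenoprotein P and rose 1.86-fold (0.90 ± 0.12), Col6a1, a chain of collagen VI (0.67 ± 0.14), and B2m, the light chain of class I histocompatibility molecules (0.42 ± 0.09). Sepp1 and Col6a1 were listed as higher in male inguinal fat (0.59 and 0.63) and in female inguinal fat (0.52 and 0.63) as well.

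Genes of acyl-CoA hydrolysis and intracellular signalling, and 1 of adenosine production, were among the largest rises, as was Vdr, given below. Acot3, a peroxisomal acyl-CoA thioesterase that releases free fatty acids from coenzyme A, rose 22.2-fold in the authors' deposited table (chromosome 12, 84052144 to 84060402). Its neighbours on chromosome 12 rose too: Acot4 (84038379 to 84048601) by 3.11-fold and Acot2, the mitochondrial member (83987861 to 83993873), by 2.95-fold. Among further acyl-CoA enzymes, the acetyl-CoA synthetase Acss1 rose (0.73 ± 0.15), and Acsf3 (-0.36 ± 0.08) and Acsf2 (-0.30 ± 0.09) fell. The 3 thioesterase genes are related neighbours and reads could be split between them, so their separate values are uncertain. Fam134b had the lowest adjusted p of the table (2.46e-110) at a deposited log2 fold of 2.92 ± 0.13 SE; it encodes a receptor that delivers endoplasmic reticulum to autophagosomes, and its gene lies on chromosome 15 from 25843180 to 25973687. Nt5e, the gene of CD73, an enzyme on the cell surface that turns AMP into adenosine, rose 8.02-fold, and its deposited log2 folds were 3.00 in perigonadal fat, 2.72 in inguinal fat of the same mice and 2.07 in female inguinal fat. Rgs16, a GTPase activator that shortens G-protein signals, rose 8.91-fold, and Mfsd7c, a membrane transporter of the major facilitator family, rose 8.33-fold.

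Other large rises fell into recognisable kinds of protein; the 30 largest rises and falls were ranked among genes with a deposited mean of at least 50, without predicted and RIKEN transcripts. Adhesion, guidance and matrix genes were Ncam1, the neural cell adhesion molecule (2.62 ± 0.20 in the authors' deposited table), Srgap3, a Slit-Robo GTPase activator (2.72 ± 0.20), Spon1, the secreted matrix protein F-spondin (2.45 ± 0.14), Svep1 (1.92 ± 0.10), the small leucine-rich proteoglycan gene Ogn (1.65 ± 0.10) and tenascin-C, Tnc (1.40 ± 0.14). Enzymes that finish sugar chains were the sialyltransferase St3gal6 (2.48 ± 0.13) and the heparan sulfate sulfotransferase Hs3st3b1 (2.20 ± 0.16). Klf14, a zinc-finger transcription factor, rose 6.01-fold, and the zinc-finger gene Zfp949 had a deposited log2 fold of 1.72 ± 0.13. Receptors and coreceptors for hormones were Gcgr, the glucagon receptor (2.44 ± 0.18), Prlr, the prolactin receptor (1.96 ± 0.13), Klb, the beta-klotho coreceptor for FGF21 (1.58 ± 0.17) and Vdr, the vitamin D receptor (3.19 ± 0.23). Further members of the 30 largest rises in the authors' deposited table were Frmd3 (2.75), Lypd1 (2.17), Nipsnap1 (2.07), Peg10 (2.04), Socs2 (1.98), Nap1l5 (1.73), the oxygen-sensing prolyl hydroxylase gene Egln3 (1.71) and Wfdc12 (1.58). Slc38a6, a neutral amino acid transporter gene, rose less (1.28 ± 0.07) but had the sixth lowest adjusted p of the table, 8.9e-68.

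**Figure D2:**
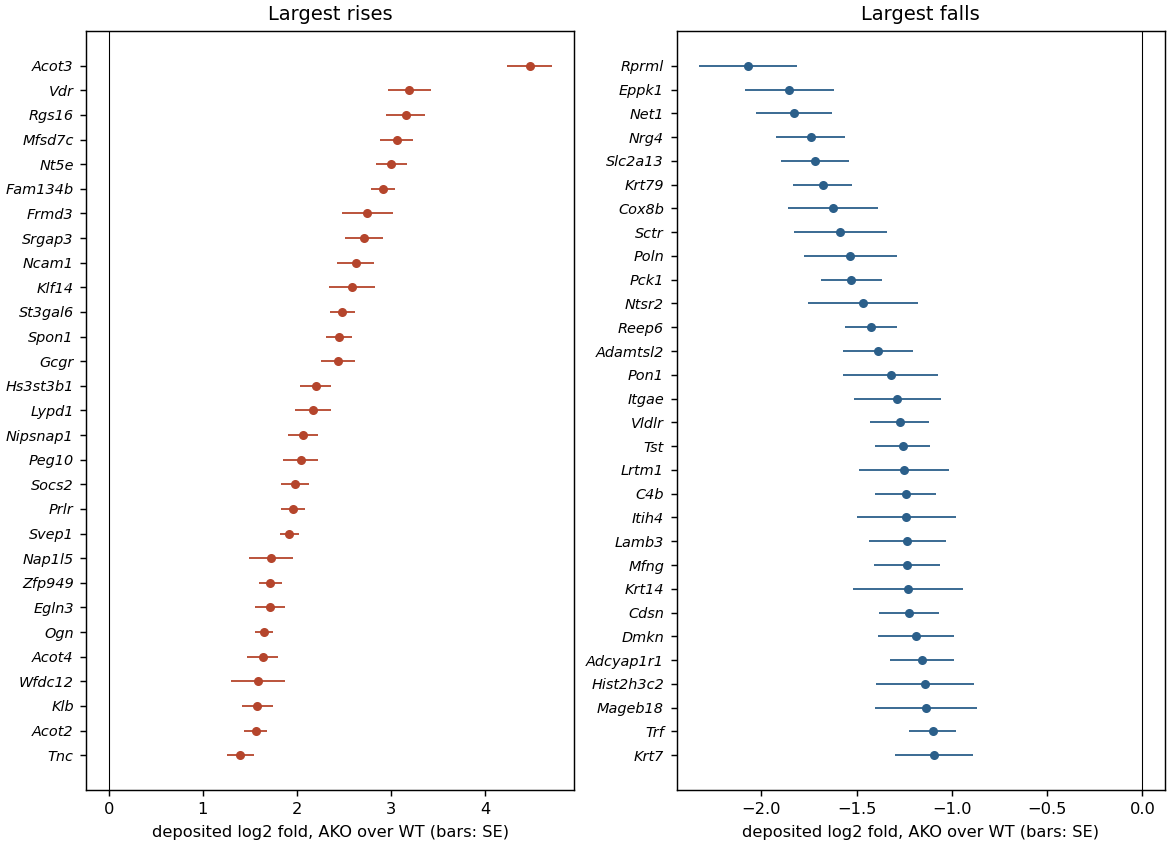
Deposited log2 folds of AKO over WT (points) with their standard errors (bars) are shown for genes among the 30 largest rises and for the 30 largest falls in perigonadal fat, taken from genes whose deposited mean reached 50, predicted and RIKEN transcripts left out. The rises run from 1.40 for Tnc to 4.47 for Acot3, and the falls from -1.09 for Krt7 to -2.07 for Rprml.

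The largest falls were smaller in size and of other kinds. Rprml (chromosome 11, 103649570 to 103650579), a relative of the cell cycle gene reprimo, fell 4.20-fold in the authors' deposited table. Net1, which encodes an exchange factor that activates RhoA, fell 3.55-fold, and Nrg4, a secreted ligand of ERBB4 receptors made by adipocytes, fell 3.34-fold. Slc2a13, the proton-coupled inositol transporter gene, fell 3.29-fold and the DNA polymerase gene Poln had a deposited log2 fold of -1.53 ± 0.24. Peptide hormone receptors were among these falls: Sctr, the secretin receptor (-1.59 ± 0.24), Ntsr2, a neurotensin receptor (-1.47 ± 0.29), and Adcyap1r1, the receptor for PACAP (-1.16 ± 0.17). Enzyme genes were Pck1 (-1.53 ± 0.16), the paraoxonase Pon1 (-1.32 ± 0.25), the rhodanese gene Tst (-1.26 ± 0.14) and Mfng, a glycosyltransferase that modifies Notch (-1.23 ± 0.17). Complement C4b (-1.24 ± 0.16), Itih4 (-1.24 ± 0.26), the lipoprotein receptor Vldlr (-1.27 ± 0.15), Reep6 (-1.43 ± 0.14), Adamtsl2 (-1.39 ± 0.19), Cox8b (-1.62 ± 0.24), Lrtm1 (-1.25 ± 0.23), Hist2h3c2 (-1.14 ± 0.26), Itgae, an integrin chain of immune cells (-1.29 ± 0.23), and Mageb18 (-1.13 ± 0.27) were further members of the 30 in the authors' deposited table.

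A group of epithelial genes stood among the 30 largest falls. They were the plakin Eppk1 (-1.85 ± 0.23 in the authors' deposited table), the keratins Krt79 (-1.68 ± 0.15), Krt14 (-1.23 ± 0.29) and Krt7 (-1.09 ± 0.21), the laminin chain Lamb3 (-1.23 ± 0.20), Cdsn, which encodes the skin adhesion protein corneodesmosin (-1.23 ± 0.16), and the secreted skin protein Dmkn (-1.19 ± 0.20). Of 25 epithelial markers, 5 were listed (20%, beside 11.1% of all genes tested) and 20 were not. All 5 fell, with Krt19 (-1.05 ± 0.20) beside Eppk1, Krt79, Krt14 and Krt7. Lamb3, Cdsn and Dmkn are not on that marker list. Of 23 mesothelial markers, 7 were listed (30.4%). Krt7, Krt19, Lrrn4 (-0.91 ± 0.20), Prr15 (-0.85 ± 0.23), Nkain4 (-0.84 ± 0.20) and Ildr2 (-0.69 ± 0.16) fell, while Sulf1 rose (0.99 ± 0.10). Of 36 markers of male genital tract epithelium, the deposited table lists Cldn10 alone (-0.70 ± 0.23), and of 16 testis markers Sycp3 alone (-0.78 ± 0.26), a gene that overlaps the listed gene Chpt1 on the other strand. The part that other tissue in the pad played in the falls of epithelial genes was not tested. In whole tissue, fewer cells of a type and less RNA per cell cannot be told apart.

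Of 18 lipid droplet symbols 7 were in the authors' deposited table, which is 38.9% of the list beside the 11.1% called among all genes tested, and all 7 fell, with a median log2 fold of -0.55. The droplet fusion gene Cidea (-1.60 ± 0.28 at a mean of 38 normalized counts) and the perilipin of oxidative tissue Plin5 (-1.07 ± 0.19) changed most, followed by the droplet-associated methyltransferase Mettl7b (-0.77 ± 0.21). Bscl2, which encodes the droplet assembly protein seipin, and Plin2 changed least, with deposited log2 folds of -0.36 ± 0.13 and -0.23 ± 0.08. Cidea overlaps the predicted transcript B430212C06Rik on the other strand, which fell as well (-1.24 ± 0.25), and the counting strand is not given in the sources used here.

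Fatty acid entry and esterification were represented by few genes, and each of them fell. The uptake list of 26 symbols had 3 entries in the authors' deposited table: Vldlr, which captures triglyceride-rich lipoproteins and fell 2.42-fold, the fatty acid transport protein Slc27a1 (-0.51 ± 0.12) and Ptrf. The triglyceride synthesis list of 23 symbols also had 3: Pck1, the enzyme of glyceroneogenesis (chromosome 2, 173153048 to 173159273), Dgat2, the final acyltransferase (-0.63 ± 0.20), and the monoacylglycerol acyltransferase Mogat1 (-0.61 ± 0.13). Shares of 11.5% and 13.0% of these lists were near the background of 11.1%.

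The 3 consecutive lipases of fat breakdown all fell, with deposited log2 folds of -0.68 ± 0.08 for Pnpla2, which removes the first fatty acid, -0.37 ± 0.07 for Lipe and -0.33 ± 0.09 for Mgll, the last 2 being within 1 SE of each other. Receptors that control them moved in both directions in the authors' deposited table. Gcgr rose 5.42-fold and Adra1a, an alpha-1 adrenergic receptor, rose 1.84-fold. Adrb3, the beta-3 adrenergic receptor of adipocytes, fell 1.63-fold, Sctr fell 3.00-fold and Ffar2, a receptor for short-chain fatty acids that restrains lipolysis, fell 1.32-fold.

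Fatty acid oxidation was the list with the largest share of listed genes among the lipid lists: 15 of 29 mitochondrial symbols were in the authors' deposited table (51.7%), 14 lower and 1 higher. The exception was Acot2. The falls spanned the transfer of acyl groups (Crat, carnitine acetyltransferase, -0.58 ± 0.12), the first dehydrogenation (Acadl, -0.62 ± 0.11), the handling of unsaturated chains (Decr1, -0.67 ± 0.12), the later steps (Hadha, -0.44 ± 0.11, and Hadh, -0.44 ± 0.08) and the flavoprotein that passes the electrons on (Etfa, -0.66 ± 0.08, and Etfb, -0.54 ± 0.09). These 7 were the largest of the 14 falls, between 1.35-fold for Hadha and 1.59-fold for Decr1, and the smallest of the 14 was 1.19-fold. Peroxisomal oxidation had 11 of 28 symbols listed, 9 lower and 2 higher, the 2 being Acot3 and Acot4. The bifunctional enzymes Ehhadh (-0.59 ± 0.11) and Hsd17b4 (-0.45 ± 0.10), the thiolase and carrier protein Scp2 (-0.45 ± 0.07), Phyh, which starts the breakdown of branched chains (-0.43 ± 0.10), Ech1 (-0.37 ± 0.06) and catalase, Cat (-0.31 ± 0.10), were among the falls in the deposited table, together with the peroxisome formation genes Pex11a (-0.69 ± 0.15) and Pex19 (-0.28 ± 0.08). Scp2 overlaps the listed gene Podn on the same strand, so their reads may be shared.

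Respiratory chain genes did not share this pattern in the authors' deposited table. Of 113 symbols 4 were listed (3.54%): Cox8b (-1.62 ± 0.24), Atp5s (-0.42 ± 0.13) and Cox14 (-0.33 ± 0.12) were lower and Atp5g1, a membrane subunit of ATP synthase, was higher (1.12 ± 0.15). The mitochondrial ribosome had 3 of 84 symbols listed, Mrpl49, Mrpl52 and Mrpl10, with deposited log2 folds of -0.39, -0.37 and -0.31. None of 93 cytosolic ribosome genes was listed. Of 28 thermogenic adipocyte symbols, Cox8b and Cidea fell, and the nucleoside transporter Slc29a1 (0.57 ± 0.10) and the coactivator Ppargc1a (0.47 ± 0.14) rose.

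Fatty acid synthesis had 6 of 25 symbols listed (24%, beside 11.1% of all genes tested), 5 lower and 1 higher. Acacb, the acetyl-CoA carboxylase at the mitochondrial surface, and Aacs, which activates acetoacetate, both fell 2.06-fold in the authors' deposited table. The transcription factor gene Srebf1 (-0.77 ± 0.14), the pentose phosphate enzyme Taldo1 (-0.59 ± 0.15) and Insig2, which holds sterol sensors in the endoplasmic reticulum (-0.33 ± 0.08), fell as well, while Mlxipl, the carbohydrate-sensing transcription factor ChREBP, rose (0.33 ± 0.11). Of 10 symbols for polyunsaturated fatty acid synthesis 2 were listed (20%): the delta-5 desaturase Fads1 rose 2.45-fold and the elongase Elovl1 rose 1.29-fold. Sterol synthesis had Acat2, the cytosolic thiolase (-0.86 ± 0.15), as its single listed gene of 24 (4.17%). Eicosanoid metabolism had 4 of 35 symbols listed (11.4%, near the background of 11.1%). These 4 fell: the soluble epoxide hydrolase Ephx2 (-0.70 ± 0.13), the adipocyte phospholipase Pla2g16 (-0.65 ± 0.11), the prostacyclin synthase Ptgis (-0.59 ± 0.14) and Pla2g12a (-0.46 ± 0.09).

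**Figure D3:**
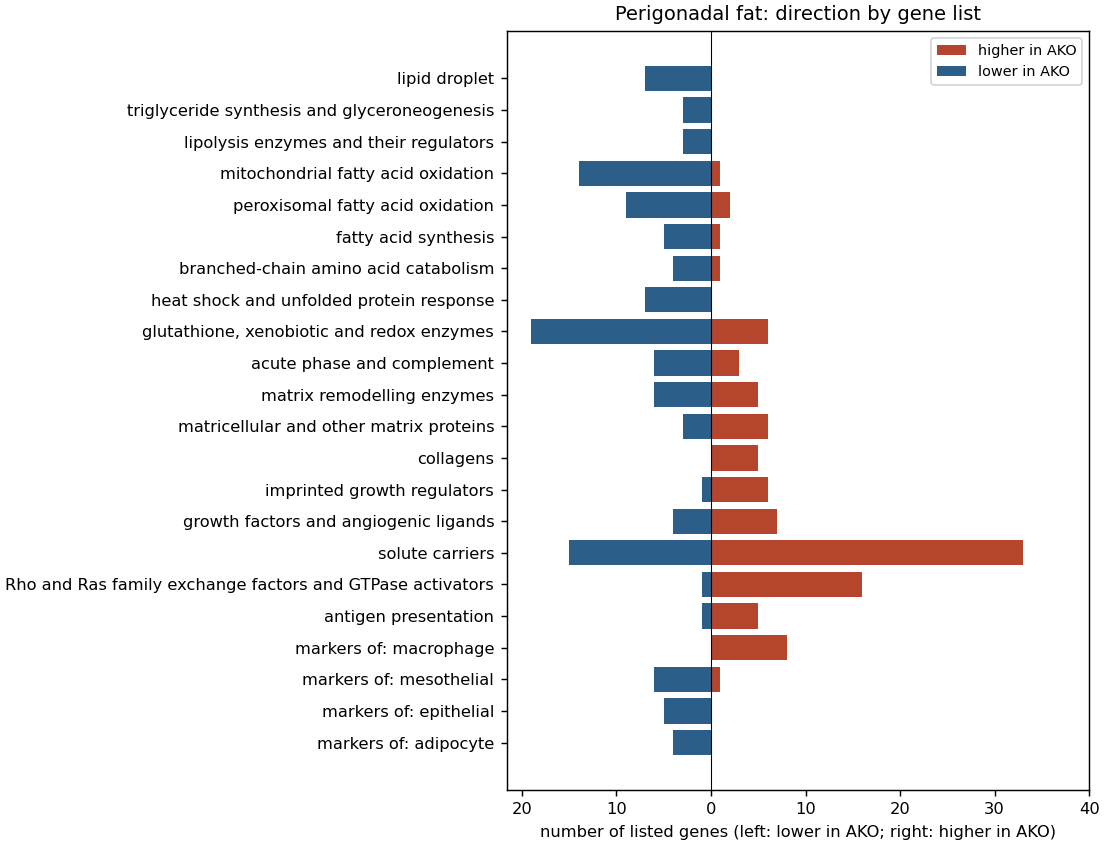
Bars count the genes of chosen lists that the deposited perigonadal table gives as lower in AKO (left of 0) or higher in AKO (right of 0). Lipid droplet, lipolysis and heat shock genes lie left of 0 alone, collagens and macrophage markers lie right of 0 alone, and the solute carriers hold 33 genes to the right and 15 to the left.

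Amino acid and glucose metabolism genes moved in both directions. Shares listed were 21.7% for branched-chain amino acid breakdown, 16.7% for glycolysis and glycogen and 8.82% for the citrate cycle list. The background was 11.1% of all genes tested. The breakdown of branched-chain amino acids had 4 falls and 1 rise among 23 symbols in the authors' deposited table: the transaminase Bcat2 (-0.64 ± 0.11), both chains of methylcrotonyl-CoA carboxylase, Mccc2 (-0.53 ± 0.08) and Mccc1 (-0.52 ± 0.12), and the propionyl-CoA carboxylase chain Pccb (-0.41 ± 0.07) were lower, and Hsd17b10 was higher (0.41 ± 0.10). Glycogen phosphorylases of liver and brain type, Pygl (-0.78 ± 0.18) and Pygb (-0.37 ± 0.11), fell together with Pgm2 (-0.38 ± 0.09) and Fbp2 (-0.85 ± 0.29), whereas the phosphofructokinase gene Pfkm (0.52 ± 0.13) and Pfkfb1 (0.26 ± 0.09) rose. In the citrate cycle list the deposited log2 folds were 0.46 for the pyruvate dehydrogenase kinase Pdk3, -0.31 for Idh2 and -0.29 for Suclg2.

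Insulin signalling showed opposite movements of related genes. Akt1 rose 1.61-fold and Akt2, the AKT kinase most tied to glucose uptake, fell 1.34-fold in the authors' deposited table. The receptor substrates Irs1 (0.48 ± 0.17) and Irs3 (0.41 ± 0.12), the adaptor Grb10 (0.46 ± 0.06) and the glucose transporter Slc2a1 (0.27 ± 0.08) rose, and the translation repressor Eif4ebp1 fell (-0.39 ± 0.10). With Slc2a13 the list had 8 of 36 symbols listed, 5 higher and 3 lower. Neither the insulin receptor gene nor Slc2a4, the insulin-regulated glucose transporter gene, was in the deposited table.

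Of 49 nuclear receptor symbols, 5 were in the authors' deposited table, a share (10.2%) near the background of 11.1%: Vdr rose 9.14-fold, the oestrogen receptor Esr1 rose 2.59-fold, the retinoic acid receptor Rarg (0.41 ± 0.15) and Ppard (0.26 ± 0.08) rose, and Rxra, the shared partner of many of these receptors, fell (-0.29 ± 0.08). Vdr was not listed in either inguinal comparison. In the growth hormone, prolactin and STAT5 list, 4 of 26 symbols were listed. Prlr and Socs2, a feedback inhibitor that STAT5 induces, rose 3.88-fold and 3.94-fold, the binding protein Igfbp7 rose (0.59 ± 0.14) and Igfbp6 fell (-0.57 ± 0.17). Among adipocyte transcription factors, Klf14 rose, Hoxc8, a homeobox gene, fell 1.84-fold and Klf6 rose slightly (0.27 ± 0.10).

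Transducers downstream of G-protein-coupled receptors moved in both directions. Of 99 symbols, 11 were in the authors' deposited table, 7 higher and 4 lower, which at 11.1% equals the background. Besides Rgs16, Rgs1 (1.02 ± 0.27), Rgs18 (0.45 ± 0.15) and Rgs14 (0.40 ± 0.14) rose, whereas Rgs2 fell (-0.99 ± 0.19). The cyclase Adcy3 (0.77 ± 0.11), which makes cyclic AMP, rose and the phosphodiesterase Pde4d (-0.93 ± 0.16), which breaks it down, fell. Gng2 (0.58 ± 0.15) and Grk4 (0.53 ± 0.18) were higher, and Adrbk2 (-0.29 ± 0.10) and Gnb1 (-0.22 ± 0.06) lower. Receptors on a further list of 215 symbols had 8 entries, among them the lysophosphatidic acid receptor Lpar4 (1.27 ± 0.17), Gpr173 (1.00 ± 0.21), Gpr34 (0.65 ± 0.13), Avpr1a, a vasopressin receptor (0.51 ± 0.16), and Gpr155 (0.46 ± 0.14) with rises, and Adcyap1r1 and Gpr133 (-0.53 ± 0.15) with falls. The remaining entry, Agtrap (0.26 ± 0.09), is a protein that binds a receptor and not a receptor.

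Of 121 regulators of small GTPases, the authors' deposited table lists 17, of which 16 were higher and Net1 was lower, and 104 were not listed. Beside Srgap3 they included Tiam2, an exchange factor for Rac (1.03 ± 0.22), Arhgap24 (0.62 ± 0.16), Dock4 (0.52 ± 0.15), Fgd2 (0.52 ± 0.13) and Fgd6 (0.40 ± 0.12), as well as Arhgap36 (1.25 ± 0.27) at a deposited mean of 19 normalized counts. The list took in both activators and inactivators of these GTPases.

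Collagens had 5 of 44 symbols in the authors' deposited table (11.4%, near the background of 11.1%), and these 5 were higher: Col22a1 (1.96 ± 0.27 at a mean of 34), Col6a1, Col28a1 (0.45 ± 0.15), and both chains of collagen I, Col1a1 (0.37 ± 0.10) and Col1a2 (0.22 ± 0.06). In basement membrane, Nid1 (0.40 ± 0.13) and Lamb1 (0.19 ± 0.07) rose and Lamb3 fell. Matricellular and other matrix proteins had 9 of 55 symbols listed. The rises were Spon1, Ogn, Tnc, the calcium-binding protein Smoc1 (1.06 ± 0.13), Emilin2 (0.96 ± 0.16) and Omd (0.60 ± 0.19). The falls were 2 members of the family named for binding latent TGF-beta, Ltbp2 (-0.86 ± 0.15) and Ltbp3 (-0.66 ± 0.07), and the proteoglycan Podn (-0.75 ± 0.19).

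Enzymes that cut or modify matrix were split 5 higher to 6 lower in the authors' deposited table. The metalloproteinases Mmp27 (0.96 ± 0.22) and Mmp13 (0.83 ± 0.27 at a mean of 25), the collagen lysyl hydroxylase Plod2 (0.66 ± 0.12), Htra1 (0.38 ± 0.12) and Adamtsl4 (0.28 ± 0.09) rose. Adamtsl2, Adamts16 (-0.92 ± 0.23), the inhibitor Timp4 (-0.67 ± 0.17), Htra3 (-0.58 ± 0.14), the procollagen enhancer Pcolce (-0.40 ± 0.09) and Plod3 (-0.39 ± 0.11) fell.

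Secreted growth factors were led by 1 fall and 1 rise, Nrg4 and the insulin-like growth factor Igf2 (2.41-fold higher). The others that rose in the authors' deposited table were the vessel-stabilising ligand Angpt1 (0.90 ± 0.16), Fgf7 (0.78 ± 0.21), Wnt5b (0.69 ± 0.14), Wnt5a (0.40 ± 0.12), Bmp2 (0.40 ± 0.13) and Tgfb3 (0.38 ± 0.12), and the others that fell were Fgf1 (-0.77 ± 0.16), Wnt2b (-0.71 ± 0.24) and Vegfb (-0.43 ± 0.13). The total of 11 listed among 104 symbols (10.6%) was near the background. Receptors that rose were Met (0.72 ± 0.10), Egfr (0.50 ± 0.12) and Ntrk2 (0.46 ± 0.16), and Fgfr1 fell (-0.30 ± 0.10). Of the remaining Wnt pathway genes, the inhibitor Nkd1 (0.91 ± 0.17) and the transcription factor Tcf7l1 (0.52 ± 0.09) had higher deposited values and the coreceptor Lrp6 had lower ones (-0.26 ± 0.08).

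Imprinted genes, which are expressed from 1 parental copy, had 7 of 35 symbols listed. Peg10 (2.04 ± 0.19), Igf2 (1.27 ± 0.16), Magel2 (1.09 ± 0.26 at a mean of 11), Ndn (0.82 ± 0.19), Gatm (0.64 ± 0.13) and Grb10 rose in the authors' deposited table. The long noncoding RNA Rian fell (-0.46 ± 0.12).

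Of 28 macrophage markers 8 were in the authors' deposited table (28.6%, beside 11.1% of all genes tested) and these 8 rose, between 1.30-fold for the mannose receptor Mrc1 and 2.50-fold for Atp6v0d2, a proton pump subunit. They included Emr1, which encodes F4/80 (0.55 ± 0.10), Csf1r, the receptor for macrophage colony-stimulating factor (0.45 ± 0.10), Cd68 (0.58 ± 0.12), Cd300lb (0.70 ± 0.17) and the lysosomal protease Ctss (0.56 ± 0.13). No marker of T or natural killer cells (0 of 23), B cells (0 of 15), granulocytes or mast cells (0 of 19), endothelium (0 of 20), muscle (0 of 21) or red cells (0 of 11) was listed. Of 9 dendritic cell markers Itgae was lower (-1.29 ± 0.23), of 14 mural cell markers Mylk was lower (-0.41 ± 0.14), and of 25 fibroblast and progenitor markers Clec11a (-0.49 ± 0.13), Dpp4 (-0.46 ± 0.17) and Cd55 (-0.42 ± 0.13) were lower beside the 2 collagen I genes. Adipocyte markers had 4 of 11 symbols in the deposited table, Pck1, Pnpla2, Cidec and Lipe, all lower, whereas Adipoq, Plin1, Lep, Fabp4, Cfd, Car3 and Retn were not listed.

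Further immune genes moved in both directions. The chemokines Ccl8 (1.22 ± 0.24) and Cxcl9 (1.08 ± 0.11) rose 2.33-fold and 2.11-fold in the authors' deposited table, and Il18bp (0.71 ± 0.13), the receptor chain Il10ra (0.61 ± 0.11), Il1rl1 (0.40 ± 0.12) and Il17rc (0.23 ± 0.07) rose too. Il17re (-0.57 ± 0.19) and Il22ra1, at a mean of 13, fell. Those 8 were out of 172 symbols, and 4.65% is below the background of 11.1%, although a list can hold genes the authors did not test. Class II presentation genes rose: Ciita, their master regulator (0.60 ± 0.16), H2-Aa (0.57 ± 0.16), H2-Ab1 (0.48 ± 0.16) and H2-DMb1 (0.42 ± 0.14). Tapbp, which loads peptide onto class I molecules, fell (-0.41 ± 0.08). Interferon-stimulated genes were split 4 to 4, with the guanylate-binding proteins Gbp3 (0.79 ± 0.07), Gbp7 (0.69 ± 0.15) and Gbp5 (0.47 ± 0.14) and the factor Irf8 (0.48 ± 0.12) higher, and Ifi205 (-0.55 ± 0.16), Ifi35 (-0.30 ± 0.11) and Parp9 (-0.21 ± 0.07) among the lower ones. The part of macrophage number in these rises was not tested.

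Of 73 acute phase and complement symbols 9 were in the authors' deposited table (12.3%, near the background of 11.1%), 6 lower and 3 higher. C4b, Itih4 and Hp fell as given above, the complement factor Cfb fell 1.63-fold, Serpina3i fell 2.54-fold at a mean of 21, and Cd55, which protects cells from complement, fell 1.33-fold. The 3 rises were the anaphylatoxin receptors C3ar1 (0.59 ± 0.13) and C5ar2 (0.72 ± 0.20) and Cp, the copper oxidase ceruloplasmin (0.60 ± 0.11), which overlaps the listed gene Hps3. Among 36 symbols of secreted adipocyte proteins 3 were listed (8.33%, below the background). Nrg4, Trf and the chemerin gene Rarres2 (-0.63 ± 0.11) fell, and the other 33 symbols have no value here.

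Iron and vitamin handling genes were split 4 to 4 in the authors' deposited table. Slc40a1, the iron exporter ferroportin, rose (0.56 ± 0.13) beside Cp, Vdr and Mfsd7c. Trf, Tfr2, a transferrin receptor (-1.61 ± 0.29 at a mean of 14), Alas1, the first enzyme of haem synthesis (-0.79 ± 0.15), and Rbp7, a retinol-binding protein (-0.53 ± 0.17), fell.

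Solute carriers numbered 48 of 396 symbols in the authors' deposited table (12.1%, near the background), 33 higher and 15 lower with a median log2 fold of 0.35. The 8 with the largest absolute log2 folds held 3 rises, the mitochondrial carrier Slc25a48 (1.43 ± 0.29), Slc38a6 and the monocarboxylate transporter family member Slc16a6 (0.94 ± 0.17). The falls among them included Slc2a13, the choline transporter Slc5a7 (-1.34 ± 0.28 at a mean of 11), the noradrenaline transporter Slc6a2 (-0.80 ± 0.29) and the folate transporter Slc46a1 (-0.79 ± 0.16). Slc6a2 had the highest adjusted p of the table at 0.0499. Ion channels and aquaporins were split 9 higher to 8 lower, with Kcng2 (1.62 ± 0.26) and Aqp2 (1.15 ± 0.28) higher and Clic3 (-1.03 ± 0.27), P2rx5 (-1.01 ± 0.19), Asic2 (-0.90 ± 0.29), Kcnk2 (-0.88 ± 0.18), Kcne1l (-0.87 ± 0.25) and Aqp5 (-0.77 ± 0.24) lower in deposited log2 fold. Of 50 ABC transporters, Abca3 was listed (0.33 ± 0.10).

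Adhesion molecules were balanced, 9 higher and 9 lower of 246 symbols. Ncam1, the protocadherins Pcdhgc4 (1.22 ± 0.23) and Pcdhgc5 (0.99 ± 0.24), which overlap on the same strand, and Slitrk5 (1.35 ± 0.29 at a mean of 10) were higher in the authors' deposited table. Itgae, Lrtm1, Cdh3 (-0.95 ± 0.23), a cadherin of epithelia, and Lrrn4 were lower.

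Of 100 chaperone and stress genes 7 were in the authors' deposited table, a share of 7% beside the 11.1% called among all genes tested, and these 7 were lower: the glutathione-degrading stress gene Chac1 (-0.74 ± 0.15), Dnajb13 (-0.64 ± 0.22), the small heat shock proteins Hspb8 (-0.54 ± 0.08) and Hspb1 (-0.43 ± 0.11), Creld2 (-0.41 ± 0.13), Dnajb2 (-0.32 ± 0.10) and Hspa4 (-0.24 ± 0.09). Glutathione, xenobiotic and redox enzymes had 25 of 290 symbols listed, 6 higher and 19 lower. Ugt3a2 (-1.64 ± 0.26), Pon1, the thioredoxin reductase Txnrd3 (-0.81 ± 0.13), Ephx2, Cyp2s1 (-0.68 ± 0.18) and Aldh1l1 (-0.65 ± 0.15) were the largest falls, and Cyp4f39 (0.96 ± 0.23) and the microsomal transferase Mgst3 (0.88 ± 0.13) the largest rises.

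Lysosome and autophagy genes had 11 of 94 symbols listed, 7 higher and 4 lower. Fam134b, Atp6v0d2, the proteases Ctss, Ctsc (0.39 ± 0.11) and Ctsh (0.33 ± 0.10), and the transcription factor Tfe3 (0.21 ± 0.06) were among the rises in the authors' deposited table. The proton pump subunits Atp6v0a4 (-0.98 ± 0.23), Atp6v1g1 (-0.43 ± 0.11) and Atp6v1h (-0.30 ± 0.10) and the autophagy enzyme Atg7 (-0.22 ± 0.08) fell.

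Cell cycle, clock and homeobox lists held few genes. Myc (0.82 ± 0.20), the kinase inhibitor Cdkn2c (0.60 ± 0.15), the cyclin Ccnd3 (0.45 ± 0.09) and the phosphatase Cdc25a (0.44 ± 0.15) rose in the authors' deposited table, and Cdc42ep3 (0.84 ± 0.17) and Cdc40 (0.50 ± 0.11) were caught by their names although they act in cell shape and splicing. These 6 of 119 symbols were 5.04% of the list, below the background. The immediate early gene Egr1 rose (0.53 ± 0.18). The clock repressor Bhlhe41 fell 1.96-fold while the cryptochrome gene Cry1 rose (0.49 ± 0.13). Of the homeobox list, Six4 (0.87 ± 0.25) and Pbx3 (0.40 ± 0.12) were higher and Tbx18, a T-box gene on the same list, lower (-0.44 ± 0.14), and Klf16 fell (-0.55 ± 0.13). Predicted and RIKEN transcripts numbered 70, of which 25 rose and 45 fell, from a deposited log2 fold of 3.40 for Gm20125 to -1.98 for 1110059M19Rik.

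Inguinal fat, a subcutaneous depot, of the same 8 mice gave values per animal for the genes most changed in perigonadal fat. The deposited counts there cover listed genes only and summed to between 592820 and 2603509 per library, which is not the library's depth. Normalized counts of Fam134b there were 624, 456, 450 and 406 in AKO mice, against 118, 131, 62.1 and 126 in WT mice. The deposited inguinal counts hold only genes that had passed the authors' inguinal threshold, so groups that do not overlap there follow largely from that choice and the values are a description. Every AKO mouse was above every WT mouse, and the gene averaged 484 ± 95.7 in AKO mice and 109 ± 31.9 in WT mice (SD, n = 4 each). Nt5e had 824, 845, 803 and 655 normalized counts in AKO mice, against 137, 90.6, 101 and 113 in WT mice. Those groups did not overlap either, nor did those of Srgap3, at 231, 307, 317 and 332 in AKO mice, against 37.6, 62.2, 40.5 and 49.8 in WT mice. Net1 had 2409, 2459, 1673 and 2727 in AKO mice, against 5082, 6585, 6750 and 6818 in WT mice. Here every AKO mouse was below every WT mouse, which was also so for Rprml at 30.7, 17.2, 3.95 and 14.3 in AKO mice, against 161, 97.1, 116 and 38.7 in WT mice. Ncam1, whose deposited log2 fold was 2.62 ± 0.20 in perigonadal fat, had 69.9, 82.6, 90.8 and 60.8 normalized counts in the inguinal fat of AKO mice, against 56.4, 44.7, 56.9 and 43.2 in WT mice. The groups were apart there as well, though the deposited inguinal log2 fold was 0.54. The difference between the depots was not tested, since values per perigonadal library were not used. Since the animals are shared, the inguinal values are not independent of the perigonadal ones.

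**Figure D4:**
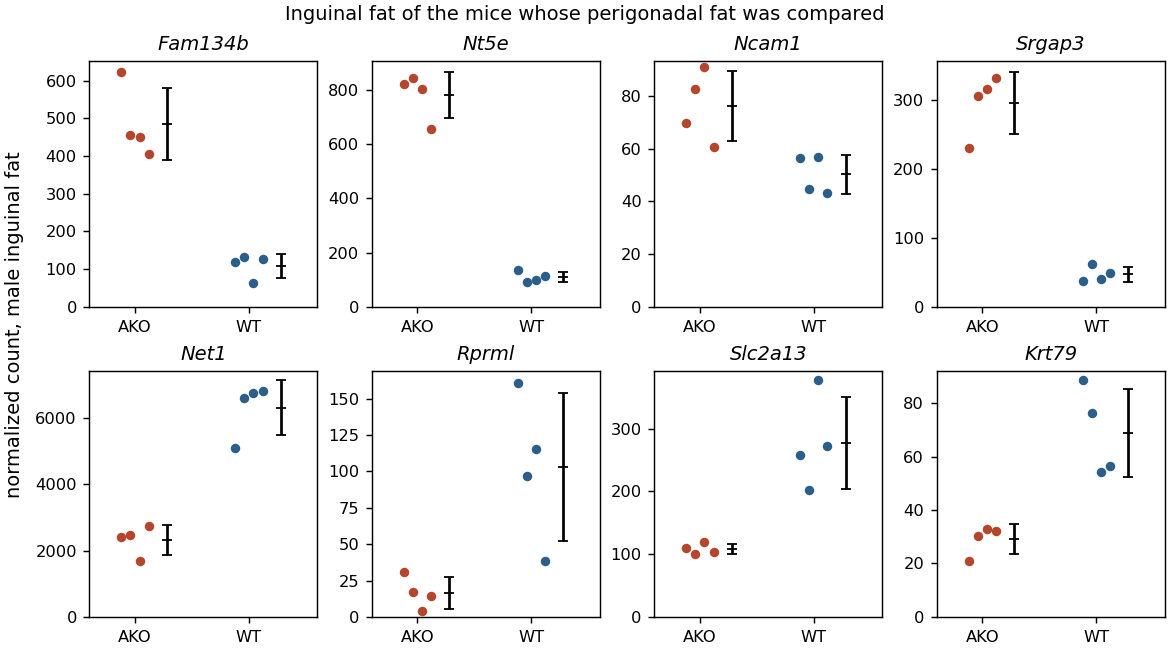
Points are normalized counts in the inguinal fat of the 4 AKO and 4 WT males whose perigonadal fat was compared, with the mean and SD as bars beside them, for 4 genes that rose and 4 that fell in perigonadal fat; every axis starts at 0. These genes had all passed the authors' inguinal threshold, and AKO and WT mice do not overlap in the panels; for Ncam1 the lowest AKO value is 60.8 and the highest WT value 56.9.

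The authors called 8.56% of the genes tested in male inguinal fat and 5.83% of those in female inguinal fat. Male inguinal fat had 499 of the perigonadal genes on its own deposited list of 1074, which is 33.5% of the perigonadal and 46.5% of the inguinal list. Female inguinal fat, from other mice, had 267 of them on its deposited list of 790, which is 17.9% of the perigonadal and 33.8% of the female list. Of those 267 genes, 168 were higher in AKO in both, 92 were lower in both and 7 were opposite. Depot and sex cannot be told apart in the female comparison. Rgs16 had deposited log2 folds of 3.16 in perigonadal fat of males and 2.68 in female inguinal fat, Klf14 had 2.59 and 2.76, Gcgr 2.44 and 2.33, and Svep1 1.92 and 1.48.

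The opposite genes were few. Lrrn4, a mesothelial marker, had a deposited log2 fold of -0.91 ± 0.20 in perigonadal fat, against 1.48 ± 0.19 in male and 0.92 ± 0.21 in female inguinal fat. Basp1 (1.18 ± 0.20), Tmem176a (0.64 ± 0.12), Emp2 (0.38 ± 0.08) and Nck2 (0.31 ± 0.08) were higher in perigonadal AKO fat and had deposited log2 folds of -0.37, -0.53, -0.37 and -0.45 in female inguinal fat. Syp (-0.44 ± 0.10) and Sh3glb1 (-0.28 ± 0.07) were lower in perigonadal AKO fat, against 0.59 and 0.26 in female inguinal fat.

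**Figure D5:**
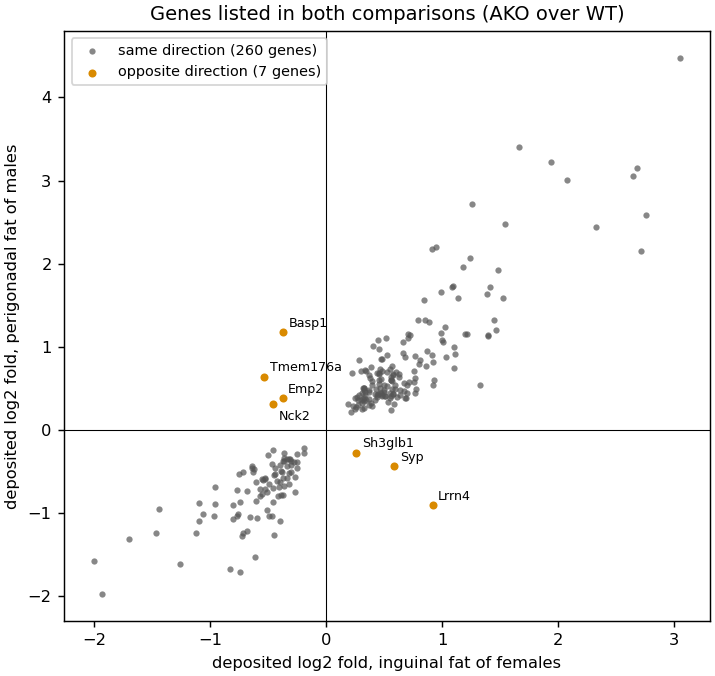
Each point is 1 of the 267 genes listed in both comparisons, with the deposited log2 fold of AKO over WT in perigonadal fat of males on the y axis and in inguinal fat of females on the x axis. The 260 grey genes share their direction, and the 7 coloured and named genes lie on opposite sides of 0.

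Perigonadal fat alone listed 906 genes that neither inguinal comparison did, 60.9% of the table, with 455 higher and 451 lower. The inguinal comparisons themselves called 8.56% (male) and 5.83% (female) of the genes tested. The median absolute log2 fold of the 906 genes was 0.43, against 0.69 for the 184 genes listed in all 3 fat comparisons. Larger folds pass a threshold more readily, so the gap between these medians follows largely from the selection. Among the 30 largest changes in each direction, predicted and RIKEN transcripts left out, the genes listed in neither inguinal table were Vdr and Prlr with rises, and Nrg4, Cox8b, Pck1, Ntsr2, Reep6, Adamtsl2, Tst, Mfng, Krt14, Dmkn, Adcyap1r1, Hist2h3c2 and Mageb18 with falls. Absence from an inguinal list is not a tested difference between depots.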

How the data were processed

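Libraries were made from poly(A) RNA with a stranded TruSeq kit after Trizol and RNeasy extraction, per the labels' protocols. STAR, DESeq2 and mm10 are named in the submitters' processing notes, without versions. How reads were counted, with which strand setting and annotation, is not given in the sources used here. Reads of genes that overlap or are near copies of each other may therefore be shared. Per the file headers, each deposited comparison gives per gene the mean of its normalized counts (used as a signal), the log2 fold, the standard error of that fold, and p-values before and after adjustment. The deposited counts of male inguinal fat are whole numbers per gene and library, not normalized.

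All perigonadal values are the authors', and no test was run here, since values per library were not used. A gene counted as called at an adjusted p under 0.05, which every listed gene met. How many genes the authors tested follows from each p and its rank-based adjustment, a step checked on simulated data. The deposited p-values equal the 2-sided normal p of fold over SE within a ratio of 0.996 to 1.005 in 1487 genes. In male inguinal fat, the slope of deposited log2 folds on plain log2 ratios of means was 0.814, which shows shrinkage in that table. Perigonadal standard errors have a ceiling of 0.292, with a median of 0.289 at means under 20, so folds of low genes may be understated. Inguinal counts were divided by the authors' size factors, solved from counts and deposited means (largest misfit 4.79e-08%).

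Members and the 69 gene lists, 15 of them cell type markers, were chosen with earlier results of these data known. Named genes are the 30 largest rises and falls at a mean of at least 50, the 15 highest means, the 10 lowest and 3 highest adjusted p, each list's members (the 8 largest beyond 12), and genes that complete a count of 5 or fewer or, as with genes opposite in direction or listed in neither inguinal table, meet a stated condition. Old symbols are kept. Results of some genes are not reported here. GENCODE M21 (GRCm38, the assembly of mm10) placed 1473 of 1488 genes, 77 through synonyms, and 3 names that a spreadsheet had turned into dates were left as they are. Of the listed genes 455 are in at least 1 list and 1033 in none. Python 3.11.15, pandas 2.3.3, numpy 2.4.6, scipy 1.17.1 and matplotlib 3.10.9 were used. Alternatives were stricter thresholds on adjusted p, size and mean, and, for inguinal ratios, another scaling, medians and leaving out each mouse.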

Additional observations from a re-analysis of the deposited data

Results flagged for a closer look

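In 2 of the 32 groups of 4 inguinal values (16 genes, AKO and WT), 1 mouse lay far from the other 3 by Dixon's criterion, and chance flags about 1 in 20 groups. For Acot3, WT mouse 1 had 8.053 normalized counts in inguinal fat, against 0, 0 and 1.11 in the other WT mice. That rests on few reads, since the 4 WT libraries held 4 raw counts of Acot3 in all and the 4 AKO libraries 190. For Net1, WT mouse 1 had 5082 normalized counts, against 6585, 6750 and 6818 in the other WT mice, and remained above the highest AKO mouse at 2727. WT mouse 1 had the smallest inguinal library by size factor, 0.373, and the part of depth in either value was not tested.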

How the results depend on the processing

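Counts of calls depended on the threshold, as fewer genes pass a stricter one. At an adjusted p under 0.01, 470 genes were higher and 432 lower in AKO, and under 0.001 300 and 286. At least 1.5-fold changes numbered 256 higher and 264 lower, and at least 2-fold changes 89 and 62. The share higher ran from 49.2% at 1.5-fold to 58.9% at 2-fold, against 51.0% as reported. At a mean of at least 50 there were 720 and 679, and without predicted and RIKEN transcripts 734 and 684. At 1.5-fold in both, the genes shared with male inguinal fat were 28.9% of the perigonadal and 47.0% of the inguinal list (33.5% and 46.5% as reported), and those shared with female inguinal fat 17.5% of the perigonadal and 27.1% of the female list (17.9% and 33.8% as reported); the cause was not tested. Of 108 list counts, 33 moved by over 1.5 times under 0.01, 64 at 1.5-fold and 3 at a mean of at least 50. Of 160 alternative inguinal log2 ratios 2 moved by more than the spread between mice and 0 reversed. Leaving out perigonadal replicates was not run, as values per library were not used. No paired analysis was possible because the perigonadal comparison came from no test made here.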

Other observations

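The listed genes were spread over the genome. Called protein-coding genes per 100 annotated ranged from 4.88 on chromosome 14 to 9.68 on chromosome 15 among the autosomes, 7.70 on X and 0.546 on Y, where Eif2s3y was the single listed gene (1.27-fold higher in AKO in the authors' deposited table). Chromosome 16, which carries both Bcl6 and Adipoq, had 44 listed genes, 17 higher and 27 lower. No mitochondrial gene was listed.

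Of the listed genes, 26 pairs overlap on the genome, and 18 pairs moved in the same direction. Eppk1 and BC024139 fell together on the same strand (log2 folds -1.85 and -0.996 in the authors' deposited table). Slc7a10, a neutral amino acid transporter gene, and Lrp3 overlap on opposite strands and moved apart (0.53 and -0.72), as did Echs1, a beta-oxidation gene, and Paox (-0.33 and 0.39). Slc16a6, Gpr34, Plod3 and Tmem176a also overlap another listed gene. Shared reads were not tested.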
